A study of Caenorhabditis elegans with 60 samples.

Results

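The regions described are 500 bp windows of the Caenorhabditis elegans genome that carried H3K9me3 in wild-type early embryos, kept it above a threshold in nrde-3 single mutants and in lin-61 single mutants, but lay below that threshold in both double mutants, met-2 nrde-3 as well as lin-61 met-2. They were chosen from the chromatin immunoprecipitation counts themselves. The level of a genotype in a window was the log2 of its H3K9me3 count over the library's median window, after adding 8 counts, minus the same quantity averaged over 14 input libraries. A member had a level of at least 2 in N2, at least 1 in nrde-3 and in lin-61, and below 1 in both double mutants, and the inputs of no genotype exceeded those of another by more than 1.5 times. Of 200551 nuclear windows, 184123 were evenly covered in this sense, 15033 of these were strongly marked in N2, and 4835 were members. Members were thus 2.41% of nuclear windows and 32.2% of the strong N2 windows, and they covered 2417.5 kb.

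H3K9me3, the trimethylated form of a lysine in the tail of histone H3, marks silent chromatin, and in C. elegans it lies mainly on chromosome arms, over repeats, transposons and silent genes. MET-2 is a SETDB1-type histone methyltransferase that places mainly lower methylation states of this lysine, and SET-25 is the enzyme that completes trimethylation in embryos. NRDE-3 is an Argonaute protein that carries small interfering RNAs into the nucleus of somatic cells, and LIN-61 is a protein with MBT domains that binds methylated histone H3. The title of the series places NRDE-3 and LIN-61 in parallel ways of bringing the trimethylating enzyme to chromatin.

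Chromatin came from early embryos harvested before the bean stage, 60 to 65 h after synchronization of L1 larvae, as 3 preparations per genotype, each with an input and an H3K9me3 library. The double mutant called met-2 nrde-3 carried met-2(n4256) on III and, on X, nrde-3(tm1116). The one called lin-61 met-2 carried the same met-2 allele and, on I, lin-61(tm2649). The single mutants carried the same nrde-3 or lin-61 allele alone, and the wild type was N2 (Bristol). Each mutant genotype was 1 strain, and a strain with the met-2 mutation alone was not analysed here, so a loss in a double mutant cannot be told apart from a loss that met-2 alone would give. The met-2 nrde-3, nrde-3 and N2 libraries belong to 1 library series and those of lin-61 met-2 and lin-61 to another, so differences across these pairs cannot be told apart from differences between the library series. Whole embryos were used, and fewer cells with the mark and less of the mark per cell cannot be told apart.

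Labels and libraries disagreed at 4 points. The sample names give H3K9me3 while the protocol names an antibody against LEM-2, a protein of the nuclear envelope, and the protocols give both 2 and 3 as the number of replicates. In N2 replicate 1, the library labelled input was enriched, with a 99th percentile 13 times the median, where all other inputs had 1.26 to 1.73, and the library labelled H3K9me3 stood at 1.71; neither was used to choose members. At III 8376567 to 8377566, on the chromosome that carries the met-2 allele per the labels, depth relative to the median window was 0 to 0.00646 in met-2 nrde-3 H3K9me3 libraries and 0.0308 to 0.329 in those of lin-61 met-2, against 1.09 to 1.28 in nrde-3, 1.28 to 1.34 in lin-61, with 0.91 to 1.32 in N2. Inputs labelled lin-61 met-2 had 0 to 0.00398, lower than the H3K9me3 libraries of that strain, and the reason was not tested. Among the other inputs, libraries labelled met-2 nrde-3 had 1.01 to 1.08 and libraries labelled nrde-3 had 0 to 0.0088, which is the reverse of their labels. Since all 14 inputs were averaged, this entered the levels equally for every genotype, apart from the condition on even inputs. The window tests use inputs by their labels, and from H3K9me3 libraries only they called 1671 members instead of 1339 lower in nrde-3 than in N2, and 175 higher and 2 lower instead of 26 and 0 in lin-61 met-2 than in met-2 nrde-3. Pairing inputs by their labels gave 4772 members, of which 4301 were shared. Depth was 22265768 to 65845682 counts per library, and the 99th percentile of the H3K9me3 libraries was 7.01 to 10.9 times the median in met-2 nrde-3, 2.87 to 3.55 in lin-61 met-2, 5.66 to 16.3 in nrde-3, 2.53 to 3.38 in lin-61, with 19.5 to 22.9 in N2 replicates 2 and 3. The contrast of mark over background therefore differed between genotypes and between library series, and its part in the levels was not tested beyond the rescaling given at the end.

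Over the members, met-2 nrde-3 embryos were close to input and lin-61 met-2 embryos were somewhat above it. The median level over the 4835 members was 0.13, 0.04 and 0.15 in the 3 preparations of met-2 nrde-3 and 0.56, 0.48 and 0.53 in those of lin-61 met-2, against 2.05, 2.95 and 1.49 in nrde-3, 1.40, 1.45 and 1.09 in lin-61 and 3.13 and 3.39 in the 2 preparations of N2. All 6 preparations of the double mutants lay below all 8 others, an order that the choice of members largely fixes. Their means ± SD were 0.11 ± 0.06 in met-2 nrde-3, 0.52 ± 0.04 in lin-61 met-2, 2.16 ± 0.73 in nrde-3, 1.31 ± 0.20 in lin-61 (n = 3 each) and 3.26 ± 0.18 in N2 (n = 2). As a ratio to input these are 1.08-fold in met-2 nrde-3, 1.44-fold in lin-61 met-2, 4.48-fold in nrde-3, 2.48-fold in lin-61 and 9.58-fold in N2. Because these values chose the members, they describe the windows and carry no test.

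**Figure D1:**
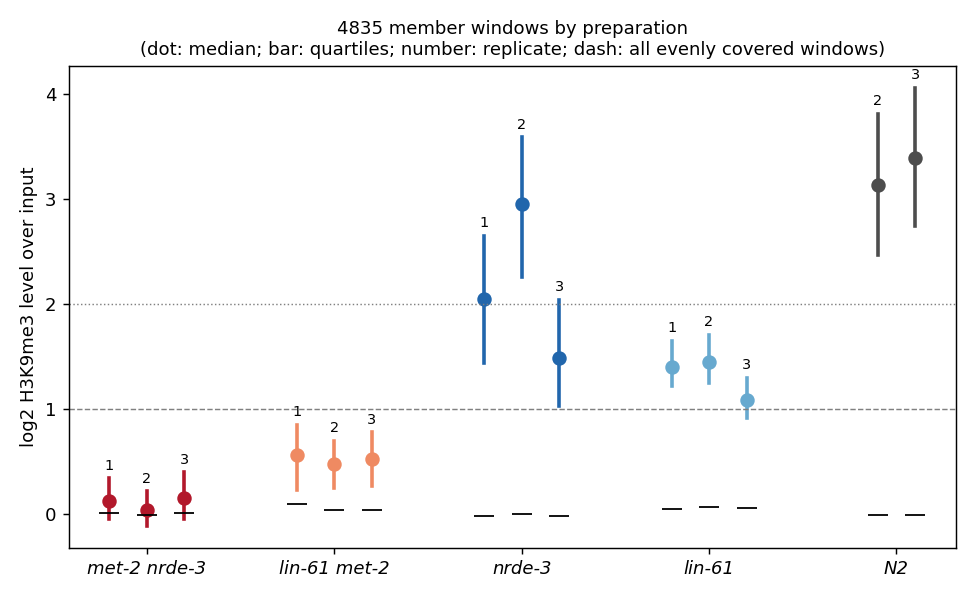
Median log2 H3K9me3 level over input in the 4835 member windows (dots) with quartiles (bars) in each preparation of the 5 genotypes, numbered by replicate; short dashes give the median of all evenly covered windows and the lines stand at 1 and 2. The double mutants lie below 1, lin-61 lies at 1.09 to 1.45 and nrde-3 spreads from 1.49 to 2.95.

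The preparations differed most in nrde-3. Its replicate 2 stood at 2.95 and its replicate 3 at 1.49, and the SD of 0.73 between nrde-3 preparations was close to the median difference of lin-61 minus nrde-3 over the members, -0.82. Unmarked windows are held near 0 by the scaling to the library median, and are given for the offset of the arms only. In 56290 evenly covered windows of the autosome arms with an N2 level below 0.5, the mean of the preparation medians was -0.08 ± 0.01 in met-2 nrde-3, -0.09 ± 0.02 in lin-61 met-2, -0.08 ± 0.01 in nrde-3, -0.07 ± 0.02 in lin-61 (n = 3 each) and -0.04 ± 0.02 in N2 (n = 2). In met-2 nrde-3, members therefore stood at 0.11 ± 0.06, against -0.08 ± 0.01 in these arm windows and 0.11 ± 0.02 in the 50801 such windows of the autosome centres (n = 3).

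Both single mutants were already below N2 in the members, but for nrde-3 this held only without rescaling for contrast: with each preparation divided by its SD over all evenly covered windows, the medians were 3.23 in nrde-3, against 3.26 in N2. The median of the difference was -1.11 for nrde-3 minus N2, with quartiles of -1.22 and -0.98, against a median of -1.06 over all strong N2 windows. For lin-61 minus N2 it was -1.92 in the members and -2.02 in the strong windows. Across windows, levels in nrde-3 followed those in N2 with a Pearson r of 0.97 over the 4835 windows, and levels in lin-61 followed them with an r of 0.44. The points are neighbouring windows that share libraries, and N2 and nrde-3 also share a library series. The rule also cut lin-61 at 1, close to many of the members, which narrows its range here, so the values are descriptions and are not compared. Level in nrde-3 exceeded that in lin-61 in 4353 of the 4835 members and in 14254 of the 15033 strong N2 windows. The share was thus lower in the members than in strong windows as a whole, so this order is not particular to the members. The comparison also crosses the library series.

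The difference that came with the met-2 mutation was unequal in the backgrounds. Over the members, met-2 nrde-3 minus nrde-3 had a median of -2.0, and lin-61 met-2 minus lin-61 a median of -0.87. The steps were unequal over all strong N2 windows too, with medians of -1.57 and -0.43. In the nrde-3 line the larger step came with met-2: it exceeded the step between N2 and nrde-3 in 4601 members (95.2%). In the lin-61 line the met-2 step exceeded the step between N2 and lin-61, which crosses the library series, in 535 members (11.1%). This order depended on the scale. It turned with limma on levels divided by the SD of each preparation, which gave a median of -1.61 for lin-61 met-2 against lin-61 and -0.72 for lin-61 against N2. With column totals the member medians were 0.43 in lin-61 met-2, 1.20 in lin-61 and 1.95 in N2, so that these steps were nearly equal. The end points differed less, with lin-61 met-2 above met-2 nrde-3 in 4305 members (89.0%) by a median of 0.38.

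The window tests give the same description against the spread between preparations. With edgeR's quasi-likelihood test and Benjamini-Hochberg adjustment over all 184123 evenly covered windows, 4795 members (99.2%) were called lower in met-2 nrde-3 than in nrde-3 at an adjusted p under 0.05, where 14.4% of all windows were. The met-2 step in the nrde-3 background was thus called by this fit in nearly every member. In lin-61 met-2 against lin-61, 2210 members (45.7%) were called lower, against 6.81% of all windows, and this count was 1087 without lin-61 replicate 1, 1051 without lin-61 replicate 2 and 3517 without nrde-3 replicate 2. Called lower in lin-61 than in N2 were 4750 members (98.2%), against 23.3% of all windows, a comparison across the library series. In nrde-3 against N2 the count was 1339 members (27.7%), against 5.44% of all windows. No member was called higher in any of these 4 comparisons, where 11.4% (met-2 nrde-3 against nrde-3), 7.91% (lin-61 met-2 against lin-61), 6.08% (lin-61 against N2) and 0.118% (nrde-3 against N2) of all windows were. The rule used each of these contrasts, so the counts say how many single windows passed against the pooled spread and nothing about the choice. The count for nrde-3 against N2 is the least settled: it was 403 without N2 replicate 2 and 14 without N2 replicate 3, and it was 55 without nrde-3 replicate 1, 4831 without nrde-3 replicate 2 and 120 without nrde-3 replicate 3. Libraries that are no part of this contrast also moved it, to 881 without lin-61 replicate 1 and to 708, 773 and 759 without replicates 1, 2 and 3 of met-2 nrde-3.

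For the double mutants against each other, 26 members (0.538%) were called higher in lin-61 met-2 than in met-2 nrde-3 and 0 lower by edgeR, against 1.44% and 6.91% of all windows. At an unadjusted p under 0.05 there were 417 in either direction, and the share of all windows at that level was not computed. DESeq2 called 56 members higher and 1 lower, against 5113 higher and 14710 lower of the 184116 windows it tested. The met-2 step in nrde-3 minus the met-2 step in lin-61 was called below 0 in 2141 members (44.3%), against 5.72% of all windows, and above 0 in no member, against 5.08% of all windows, with a median log2 difference of -1.30 over the members and -0.05 over all windows. Both comparisons cross the library series, and the rule used the levels of every genotype in them, so these counts too are a description. The first count was 2, 5 and 7 without replicates 3, 2 and 1 of met-2 nrde-3, 10 without lin-61 met-2 replicate 1, 16 or 17 without a replicate of lin-61, and 311 and 114 (with 7 and 4 called lower) without nrde-3 replicates 2 and 3. The second was 1242 without lin-61 replicate 3 and 3306 without nrde-3 replicate 3.

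Single windows met the conditions with very different margins. In lin-61 met-2, 2315 members (47.9%) were below 0.5 and 335 (6.93%) below 0, that is, below the mean input, whereas in met-2 nrde-3 these were 4308 (89.1%) and 1666 (34.5%). In lin-61, 2107 members (43.6%) lay within 0.25 above the threshold, against 435 in nrde-3. The lin-61 threshold therefore set the size of the group more than any other: without it 10767 windows would qualify, against 5835 without the lin-61 met-2 condition, 5153 without that on N2, 5056 without that on met-2 nrde-3 and 4916 without that on nrde-3. Mean levels from the 5th to the 95th percentile of members ran from -0.22 to 0.67 in met-2 nrde-3, from -0.06 to 0.94 in lin-61 met-2, from 1.16 to 3.37 in nrde-3, from 1.02 to 2.01 in lin-61 and from 2.12 to 4.61 in N2.

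**Figure D2:**
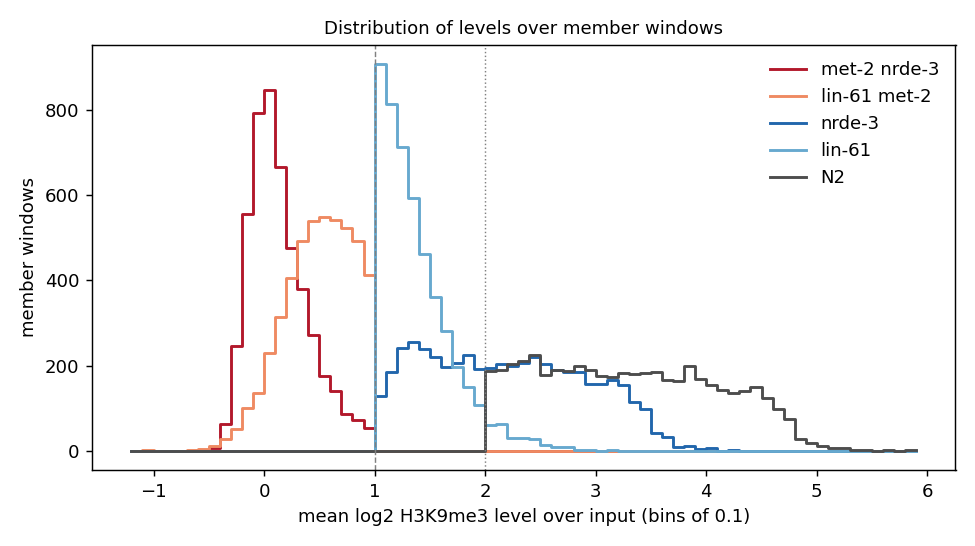
Number of member windows by mean log2 H3K9me3 level over input, in bins of 0.1, for the 5 genotypes; the lines mark the thresholds at 1 and 2. The lin-61 windows pile up just above 1, where 2107 lie within 0.25, and the lin-61 met-2 windows reach up to 1 while most met-2 nrde-3 windows lie below 0.5.

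The windows nearest each threshold show how little separates members from their neighbours in rank. For lin-61, IV 3287330 to 3287829 was inside at 1.00 with 0.92 in met-2 nrde-3, 0.69 in lin-61 met-2, 1.49 in nrde-3 and 2.86 in N2. I 13313944 to 13314443 was outside, also at 1.00 after rounding, with 0.77 in met-2 nrde-3, 0.79 in lin-61 met-2, 1.45 in nrde-3 and 2.41 in N2. These windows are much alike and fall on different sides of the rule. For lin-61 met-2, V 3103963 to 3104462 was inside at 0.9999 and II 1641007 to 1641506 outside at 1.0005, with 0.39 and 0.38 in met-2 nrde-3. For met-2 nrde-3, V 8697439 to 8697938 was inside at 0.9998 and III 1924595 to 1925094 outside at 1.001. For nrde-3, V 18644896 to 18645395 was inside at 1.0003 and III 1899095 to 1899594 outside at 0.999, and for N2 these were II 13592456 to 13592955 at 2.0005 and IV 2763832 to 2764331 at 1.9974.

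Conditions were placed on means, and single preparations met them less often. Every preparation met the condition in 4715 members (97.5%) for met-2 nrde-3, 3796 (78.5%) for lin-61 met-2, 3702 (76.6%) for nrde-3, 2928 (60.6%) for lin-61 and 4577 (94.7%) for N2. In 1653 members (34.2%) all 14 preparations met their conditions. In these, the median levels were 0.07 in met-2 nrde-3, 0.50 in lin-61 met-2, 2.48 in nrde-3, 1.49 in lin-61, with 3.60 in N2, and the lowest lin-61 mean was 1.05. They lay chiefly on the right arm of V, with 640 windows (38.7%), and the left arm of III, with 387 (23.4%), where arms are the outer 0.333 of a chromosome's length at either end.

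Preparations that took no part in the choice gave a check of the pattern. The choice was repeated without all preparations of 1 replicate number, and the windows so chosen were read in the preparations left out. With number 2 left out, 3508 windows were chosen, of which 3366 (96.0%) were members. Their medians in the unused preparations were 0.06 in met-2 nrde-3, 0.51 in lin-61 met-2, 3.12 in nrde-3, 1.52 in lin-61, with 3.31 in N2. The unused levels of the double mutants were below 1 in all but 1 window for met-2 nrde-3 and in all but 213 (6.07%) for lin-61 met-2, where 5.37% and 4.14% of all evenly covered windows reached 1. With number 1 left out, 4695 windows were chosen, and the unused medians were 0.10 in met-2 nrde-3, 0.55 in lin-61 met-2, 2.00 in nrde-3 and 1.39 in lin-61. At least 1 was reached there by 29 windows (0.618%) in met-2 nrde-3, 738 (15.7%) in lin-61 met-2, 4351 (92.7%) in nrde-3 and 4237 (90.2%) in lin-61. Of all evenly covered windows, the shares were 6.16% in met-2 nrde-3, 7.26% in lin-61 met-2, 8.11% in nrde-3 and 6.41% in lin-61, so that the chosen windows reached 1 more often than all windows in lin-61 met-2 too.

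Replicate number 3 was the weakest of these checks. Without it 5406 windows were chosen, of which 4368 (80.8%) were members. The unused medians were 0.17 in met-2 nrde-3, 0.55 in lin-61 met-2, 1.52 in nrde-3, 1.04 in lin-61, with 3.43 in N2. The order of the genotypes was the same as with the other numbers left out. In lin-61 replicate 3, however, only 2971 windows (55.0%) reached 1, against 4.74% of all evenly covered windows, so that the retained mark in lin-61 was near the threshold in that preparation. Without lin-61 replicate 3 the rule gave 5719 windows, of which 4778 were members.

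The libraries of N2 replicate 1 were also unused. Over the members, the library labelled N2 input 1 had a median of 2.47 on the log2 scale relative to its own median window, and 3282 members (67.9%) reached 2 there, against 4.70% of all evenly covered windows. Its median was 2.18 in all strong N2 windows, with 57.5% at 2. In windows kept in both double mutants it was 2.99, with 82.3% at 2, so this signal was not particular to the members. The other 14 inputs had medians of -0.15 to -0.01 over the members. The library labelled N2 H3K9me3 1 had a median of 0.11 and no member at 2. The library labelled input was therefore high in the members and the one labelled H3K9me3 was not, and with the labels taken as given only 1 window would remain a member.

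The members lay on the chromosome arms. Autosome arms held 4607 (95.3%), the autosome centres 7 (0.145%) and X 221 (4.57%), while the autosome arms held 53.5% of all evenly covered windows. The strong N2 windows as a whole were placed alike, with 94.2% on autosome arms. The median distance to the nearest chromosome end was 1.90 Mb, against 1.99 Mb for strong N2 windows and 4.29 Mb for all evenly covered windows. Within 0.5 Mb of an end lay 397 members (8.21%), against 10.1% of strong N2 windows and 5.67% of all evenly covered windows.

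A pair of arms held more than the others. The right arm of V held 1595 members (33.0%) and 28.7% of strong N2 windows, and the left arm of III held 953 members (19.7%) and 13.3% of strong N2 windows. On the left arm of III, members made up 47.8% of the strong windows and windows kept in both double mutants 3.16%. On the right arm of I, by contrast, members were 505 of 2163 strong windows (23.3%), and windows lost already in lin-61 were 52.5%. Between these were the left arms of II with 536 members, IV with 260, V with 256, I with 235 and X with 208, and the right arm of IV with 169. The right arms of II, III and X had 66, 32 and 10. On the right arms of X and II, kept windows were 42.7% and 32.8% of the strong windows and members 7.63% and 16.1%. The differences between arms were not tested, because neighbouring windows are not independent.

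**Figure D3:**
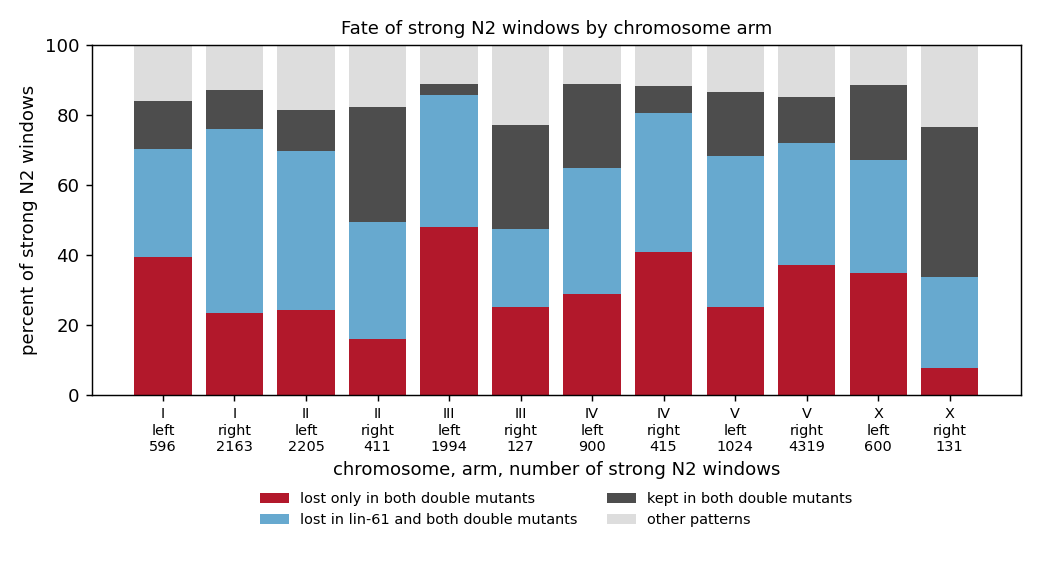
Percent of strong N2 windows on each chromosome arm (the number under each bar) that were lost only in both double mutants, lost in lin-61 as well, kept in both double mutants or followed another pattern; centres with few strong windows are left out. Members reach 47.8% on the left arm of III and are 7.63% on the right arm of X.

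Levels within the members also varied by arm. On the left arm of III the medians were -0.02 in met-2 nrde-3, 0.38 in lin-61 met-2, 2.10 in nrde-3, 1.35 in lin-61, with 3.26 in N2. On the right arm of V they were 0.08 in met-2 nrde-3, 0.57 in lin-61 met-2, 2.81 in nrde-3, 1.35 in lin-61, with 3.98 in N2. The left arm of I had weaker marking, with -0.02 in met-2 nrde-3, 0.34 in lin-61 met-2, 1.46 in nrde-3, 1.27 in lin-61, with 2.48 in N2. The level in nrde-3 thus moved with that in N2 from arm to arm, while that in lin-61 stayed between 1.16 and 1.35 on the 10 arms with at least 50 members. The cut of lin-61 at 1, with 43.6% of members within 0.25 above it, narrows its range here. N2 and nrde-3 also share a library series that lin-61 does not, so nrde-3 and lin-61 are not compared in this.

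Members were concentrated in a limited number of stretches. Of 504 bins of 200 kb, 198 held a member, and 32 bins with at least 50 held 2630 members (54.4%). The same share was not computed for all strong N2 windows. The richest was V 17200001 to 17400000 with 150 members among 337 strong windows, followed by III 1200001 to 1400000 with 136 of 234. At III 1800001 to 2000000, members were 105 of 158 strong windows (66.5%). Along the right end of V, in steps of 0.5 Mb from the end, members numbered 72, 73, 248, 242, 152, 232, 269, 242 and 54, and 4 in the step that ends at 5 Mb, so that the first 1 Mb was poorer in members than the following 3 Mb.

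Most members lay in runs of several. Runs were not counted for all strong N2 windows, so whether this is particular to the members cannot be said. They formed 1792 runs when 1 intervening window was allowed, of which 822 had 1 member and 403 had 2. The 567 runs of at least 3 members, called domains, held 3207 members (66.3%), with a median of 4 members and 2.5 kb, and 62 domains had at least 10 members. Domain means ran from -0.26 to 0.89 in met-2 nrde-3, from -0.32 to 0.94 in lin-61 met-2, from 1.06 to 3.80 in nrde-3, from 1.02 to 2.51 in lin-61 and from 2.06 to 5.23 in N2. The right arm of V held 188 domains (33.2%) and the left arm of III 109 (19.2%), close to their shares of single windows.

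Domains did not end where the mark ended. In the outermost members the mean level was 0.13 in met-2 nrde-3, 0.49 in lin-61 met-2, 2.17 in nrde-3, 1.34 in lin-61, with 3.28 in N2. In the next window outward it was 0.10 in met-2 nrde-3, 0.35 in lin-61 met-2, 1.75 in nrde-3, 0.91 in lin-61, with 2.79 in N2. At 10 kb it was 0.07 in met-2 nrde-3, 0.25 in lin-61 met-2, 1.39 in nrde-3, 0.72 in lin-61 and still 2.25 in N2. Domains were therefore stretches of larger marked territory. The mean levels of N2, nrde-3 and lin-61 all fell in the next window outward. That window failed the rule by definition, so the falls are partly fixed and do not show which condition set the edges. Of the 1134 windows next to a domain, 538 (47.4%) were strong in N2 and lost in lin-61 too, and 249 (22.0%) had an N2 level of 1 to 2. Other strong windows were 173 (15.3%), and 135 (11.9%) were not evenly covered. A further 30 (2.65%) were kept in both double mutants and 9 (0.794%) had an N2 level below 1. The 385 other windows inside domains included 205 lost in lin-61 too and 37 that were not evenly covered.

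**Figure D4:**
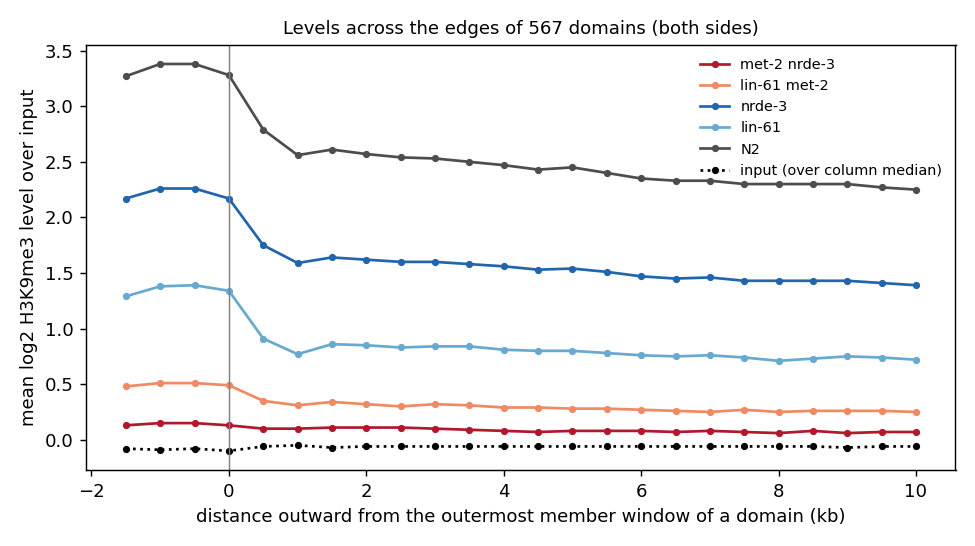
Mean log2 H3K9me3 level over input for each genotype, and mean input level over the column median, by distance in kb outward from the outermost member window of the 567 domains, both sides together; negative distances are inside. The N2 level is 3.28 at the edge and 2.25 at 10 kb, and the lin-61 level 1.34 and 0.72, while met-2 nrde-3 stays between 0.06 and 0.15.

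The input depth of the members was near that of other windows. Their median input level was -0.08 relative to the column median, against -0.05 in all strong N2 windows and 0.05 in all evenly covered windows, and 1 member (0.0207%) had an input level of at least 1, against 0.025% of all evenly covered windows. A further 310 windows met every condition on levels and were left out because their inputs differed between genotypes by more than 1.5 times.

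Members became more frequent with stronger marking in N2. They were 1961 of 7784 strong windows (25.2%) at an N2 level of 2 to 3, 1775 of 4527 (39.2%) at 3 to 4 and 1099 of 2722 (40.4%) above. Over these bins of N2 level, low to high, the met-2 nrde-3 medians were 0.01, 0.09 and 0.19 while the lin-61 met-2 medians were 0.42, 0.53 and 0.66. The nrde-3 medians were 1.48, 2.38 and 3.15 while the lin-61 medians were 1.21, 1.30 and 1.55, so that every genotype was higher where N2 was higher and nrde-3 by the most. The thresholds on the mutants shape these bins too, since a weakly marked window passes the lin-61 condition less easily.

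The other strong N2 windows fell mainly into a pair of patterns. Lost in lin-61 and both double mutants but not in nrde-3 were 5932 windows (39.5%), and kept in both double mutants were 2098. The first group differed from the members in lin-61, by rule, and was also weaker in N2: its means of preparation medians were 0.09 ± 0.03 in met-2 nrde-3, 0.33 ± 0.03 in lin-61 met-2, 1.63 ± 0.65 in nrde-3, 0.68 ± 0.14 in lin-61 (n = 3 each) and 2.59 ± 0.19 in N2 (n = 2). In the kept windows the met-2 step was -0.31 in the nrde-3 background and 0.29 in the lin-61 background at the median. The remaining patterns included 1000 strong windows (6.65%) kept in lin-61 met-2 but lost in met-2 nrde-3 with both single mutants above 1, and 221 (1.47%) with the reverse, so that among windows kept in both single mutants it was more often lin-61 met-2 that stayed above 1. That difference crosses the library series.

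The domain with the most members was III 1963095 to 1983594, a stretch of 20.5 kb with 38 members. Its mean level was 0.07, -0.05 and -0.02 in the preparations of met-2 nrde-3 and 0.34, 0.46 and 0.53 in those of lin-61 met-2, against 2.68, 3.59 and 2.07 in nrde-3, 2.12, 2.20 and 1.55 in lin-61 and 3.88 and 4.14 in N2. No preparation of a double mutant overlapped one of a single mutant or of N2, which the choice of members largely fixes. The preparations of lin-61 overlapped those of nrde-3. The fitted log2 change was -2.97 for met-2 nrde-3 against nrde-3 and -1.54 for lin-61 met-2 against lin-61, with all 38 and 35 of the members called. In nrde-3 against N2 the change was -1.13 with 10 members called, and in lin-61 against N2 it was -2.13 with all 38 called. A second domain of chromosome III among the largest, 1708596 to 1722595 with 23 members, had means of -0.02 ± 0.01 in met-2 nrde-3, 0.46 ± 0.07 in lin-61 met-2, 2.86 ± 0.79 in nrde-3, 1.89 ± 0.34 in lin-61 (n = 3 each) and 4.07 ± 0.15 in N2 (n = 2).

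The right arm of V held 7 of the 10 domains with the most members. The strongest marking in N2 among them was at V 19955891 to 19966390, 0.97 Mb from the chromosome end, with 19 members. There met-2 nrde-3 had 0.19, 0.05 and 0.19 and lin-61 met-2 had 0.36, 0.27 and 0.26, against 3.20, 4.11 and 2.57 in nrde-3, 2.00, 2.07 and 1.56 in lin-61 and 4.81 and 5.21 in N2. The difference between the double mutants, 0.13 by the fit, was smaller than in the other domains named on this arm, and none of its members was called. The fitted change of nrde-3 against N2 was -1.59 here, with 17 of 19 members called.

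Large domains with weaker marking lay on the same arm. V 17670900 to 17683899, with 23 members, had -0.14, -0.03 and -0.02 in met-2 nrde-3 and 0.39, 0.38 and 0.44 in lin-61 met-2, against 1.80, 2.63 and 1.31 in nrde-3, 1.5, 1.57 and 1.15 in lin-61 and 2.83 and 3.18 in N2. Single mutants overlapped there. V 19027395 to 19037394, with 19 members, was similar, with means of -0.07 ± 0.06 in met-2 nrde-3, 0.46 ± 0.04 in lin-61 met-2, 1.89 ± 0.71 in nrde-3, 1.57 ± 0.22 in lin-61 (n = 3 each) and 2.97 ± 0.24 in N2 (n = 2). In both, the met-2 step was less unequal between the backgrounds, at -0.99 and -1.05 on the log2 scale for nrde-3 minus lin-61, with 2 and 3 members called.

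The 4 others on this arm were strongly marked. V 18746896 to 18764395 had 30 members and means of 0.06 ± 0.05 in met-2 nrde-3, 0.45 ± 0.05 in lin-61 met-2, 3.37 ± 0.79 in nrde-3, 1.81 ± 0.32 in lin-61 (n = 3 each) and 4.71 ± 0.17 in N2 (n = 2). V 19778391 to 19795390 had 31 members and means of 0.03 ± 0.07 in met-2 nrde-3, 0.42 ± 0.11 in lin-61 met-2, 2.92 ± 0.77 in nrde-3, 1.45 ± 0.28 in lin-61 (n = 3 each) and 4.18 ± 0.19 in N2 (n = 2). In both, the nrde-3 preparations spread the most. V 19431893 to 19446892 had 27 members and nearly the same levels, with 0.02 ± 0.05 in met-2 nrde-3, 0.33 ± 0.04 in lin-61 met-2, 2.85 ± 0.78 in nrde-3, 1.29 ± 0.33 in lin-61 (n = 3 each) and 4.09 ± 0.20 in N2 (n = 2). V 19305893 to 19315892, with 19 members, had 0.01 ± 0.07 in met-2 nrde-3, 0.35 ± 0.03 in lin-61 met-2, 2.95 ± 0.78 in nrde-3, 1.41 ± 0.18 in lin-61 (n = 3 each) and 4.24 ± 0.27 in N2 (n = 2). In these 4 domains every member was called lower in met-2 nrde-3 than in nrde-3, while in lin-61 met-2 against lin-61 the called members numbered 24 of 30, 12 of 31, 10 of 27 and 10 of 19. V 19431893 to 19446892 also held the lowest value of a lin-61 preparation in any named domain, 0.92 in replicate 3.

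On the other chromosomes, the domain with the most members on II was 3042501 to 3055500 with 23. It had 0.15, 0.12 and 0.26 in met-2 nrde-3 and 0.63, 0.38 and 0.47 in lin-61 met-2, against 2.80, 3.75 and 2.14 in nrde-3, 1.93, 2.01 and 1.45 in lin-61 and 4.11 and 4.32 in N2. On IV, 16291774 to 16298773 with 12 members had the highest levels of the double mutants among the named domains, 0.20, 0.22 and 0.29 in met-2 nrde-3 and 0.76, 0.68 and 0.57 in lin-61 met-2. Its other values were 2.58, 3.50 and 1.97 in nrde-3, 1.51, 1.74 and 1.21 in lin-61 and 3.78 and 3.99 in N2. The order of genotypes was the same in both domains. Double mutants did not overlap the others, which the choice of members largely fixes here too.

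On X, 1663730 to 1669729 with 12 members had 0.06, 0.08 and 0.19 in met-2 nrde-3 and 0.68, 0.61 and 0.56 in lin-61 met-2, against 2.63, 3.56 and 2.02 in nrde-3, 1.69, 1.75 and 1.12 in lin-61 and 3.77 and 3.94 in N2. Marking on X at this domain was thus of the same size as on the autosome arms. The domain with the most members on I, 11018454 to 11026953 with 14, was the weakest. It had -0.01, -0.09 and -0.22 in met-2 nrde-3 and 0.09, 0.05 and 0.14 in lin-61 met-2, against 1.31, 2.09 and 0.90 in nrde-3, 1.42, 1.44 and 1.10 in lin-61 and 2.34 and 2.65 in N2. Here both double mutants were at input level, the single mutants overlapped, and the met-2 step hardly differed between backgrounds, with a log2 difference of -0.35 and no member called by edgeR (median adjusted p = 0.677).

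**Figure D5:**
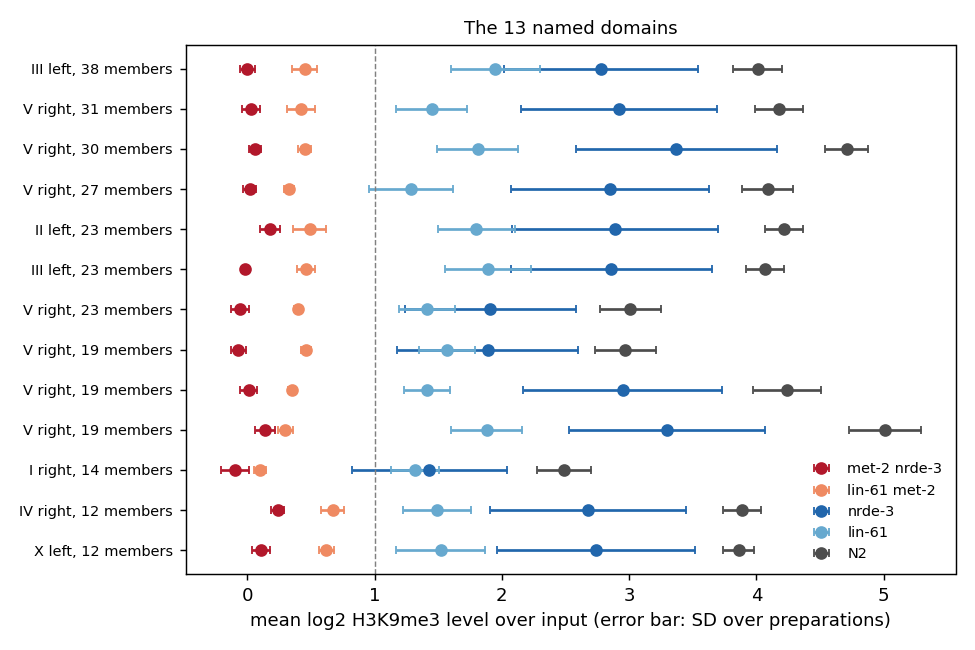
Mean log2 H3K9me3 level over input in the 13 named domains, with the SD over preparations (3 per mutant, 2 in N2), by genotype; the line marks 1. In every domain met-2 nrde-3 (-0.10 to 0.24) and lin-61 met-2 (0.10 to 0.67) lie left of lin-61 (1.29 to 1.95), nrde-3 (1.43 to 3.37) and N2 (2.49 to 5.01).

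The 13 named domains shared an order of genotypes, partly fixed by their choice: met-2 nrde-3 lowest, then lin-61 met-2, lin-61, nrde-3 and N2. The order of lin-61 below nrde-3 and of met-2 nrde-3 below lin-61 met-2 was not imposed by the rule. Both comparisons cross the library series, and the medians over all strong N2 windows had the same order. Means of lin-61 and nrde-3 differed by less than the nrde-3 spread at I 11018454 to 11026953, V 17670900 to 17683899 and V 19027395 to 19037394. When each preparation was divided by its SD over all evenly covered windows, nrde-3 stood above N2 in 10 of the 13 domains, while the met-2 steps kept their sign in all 13. The fall of nrde-3 against N2 in the members therefore depended on the scale. The loss in the double mutants relative to their single mutants did not change direction in any of the 13 domains under any alternative tried. These alternatives were read on the same members, which the rule chose with both single mutants above both double mutants. The choice thus largely fixed this direction, and its constancy is a description only.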

How the data were processed

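The authors' deposited table holds raw counts per consecutive 500 bp window, 1 column for each of 30 libraries, as whole numbers with different column totals show; per the labels each library was read in 2 runs, which the table holds combined. The genome build is ce10, per the submitters' processing notes; the aligner, the counting tool and the handling of duplicates are not given in the sources used here, so reads from repeats could be placed in more than 1 way. Counts are amplified fragments without molecular identifiers.

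Levels were computed with Python 3.11.15, numpy 2.4.6 and pandas 2.3.3 as described above, with N2 replicates 2 and 3 only. Members joined across at most 1 other window formed domains of at least 3 members. Named domains were the 10 with the most members and the one with the most members on each chromosome, 13 in all, and the windows nearest each threshold were named too. Windows were tested with edgeR 4.0.16 (R 4.3.3, quasi-likelihood, TMM factors of 0.577 to 1.14, common dispersion 0.0151) on the deposited counts, in 1 fit of all 5 genotypes without N2 replicate 1, as contrasts of H3K9me3 minus input, with adjustment over all 184123 windows. limma 3.58.1 and DESeq2 1.42.0 were alternatives. The fit was tested on simulated data.

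Members, thresholds, lists and contrasts were chosen with earlier results of these data known. Per the labels' protocols the replicates were independent biological ones; what they did or did not share is not stated further. Gene names, sequences and repeats were not assigned, because no annotation of ce10 was used here.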

Additional observations from a re-analysis of the deposited data

Results flagged for a closer look

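Data outside the comparisons gave a signal in the members. The library labelled N2 input 1, which took no part in the choice, had a median log2 level of 2.47 over its median window, where the other 14 inputs had medians of -0.15 to -0.01. The signal was not particular to the members: the median was 2.18 in all strong N2 windows and 2.99 in those kept in both double mutants.

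The difference between the met-2 steps of the backgrounds was fitted itself. The rule chose the members on the levels of all genotypes in it, so the values describe them and support nothing further. The step in nrde-3 was called larger than that in lin-61 in 2141 members, against 5.72% of all windows (edgeR, adjusted over all windows). Among the named domains, those whose median adjusted p over member windows passed had log2 differences of -1.42 at III 1963095 to 1983594 and -1.60 at III 1708596 to 1722595. On V they were -2.02 at 19778391 to 19795390, -2.11 at 18746896 to 18764395, -2.07 at 19431893 to 19446892, -1.91 at 19305893 to 19315892 and -1.77 at 19955891 to 19966390. On IV and X they were -1.82 at 16291774 to 16298773 and -1.80 at 1663730 to 1669729. Contrast was 5.66 to 16.3 in the H3K9me3 libraries of met-2 nrde-3 with nrde-3 and 2.53 to 3.55 in those of lin-61 met-2 with lin-61, as 99th percentile over median; its part in the difference was not tested, and it cannot be told apart from the library series.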

How the results depend on the processing

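The replicate numbers did not pair the preparations: deviations of same-numbered preparations correlated at -0.366 to 0.353, with 2 of 26 pairs over 0.1. With the number as a replicate block, members called were 4787 for met-2 nrde-3 against nrde-3, 2112 for lin-61 met-2 against lin-61, 1374 for nrde-3 against N2, 4745 for lin-61 against N2, 25 for lin-61 met-2 against met-2 nrde-3 and 1999 for the difference of the met-2 steps.

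Scaling by the column total gave 2323 members and 292 domains, with medians over the original members of -0.36 in met-2 nrde-3, 0.43 in lin-61 met-2 and 1.95 in N2. Of these 2323 windows, 1974 were shared, which is 40.8% of the original members. This scaling moved the median of all evenly covered windows by -0.46 in met-2 nrde-3, -0.10 in lin-61 met-2, -0.67 in nrde-3, -0.11 in lin-61, with -1.31 in N2. Dividing each preparation by its SD gave 5451 members, of which 2509 were shared (46.0% of these and 51.9% of the members), with medians of 0.18 in met-2 nrde-3, 0.96 in lin-61 met-2, 3.23 in nrde-3 and 2.43 in lin-61. Taking all 3 N2 preparations as labelled left 1 member and 0 domains, with medians of -0.0665 in met-2 nrde-3, 0.35 in lin-61 met-2 and 2.07 in N2. Loss thresholds 0.25 higher gave 3201 members, of which 2561 were shared (53.0% of the original members). Other thresholds, pseudocounts, window sizes and input filters kept both counts within 1.5 times. The windows themselves changed more in part: loss thresholds of 0.75 gave 5748 members, of which 3607 were shared (74.6% of the original members).

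Counts of called members, in either direction, for nrde-3 against N2 were 114 at an adjusted p of 0.01, 0 with all libraries as labelled, where their median log2 change was 0.97, 3585 with limma on the levels, 16 with limma on levels divided by the SD and 2478 with DESeq2. For lin-61 against N2 they were 0 as labelled and 2305 with the SD-divided levels. For met-2 nrde-3 against nrde-3 the count was 349 as labelled. For lin-61 met-2 against lin-61 it was 1056 at 0.01, 6 as labelled and 4437 with the SD-divided levels. For lin-61 met-2 against met-2 nrde-3 it was 4 at 0.01, 0 as labelled, 177 from H3K9me3 libraries only, 136 with limma, 2366 with the SD-divided levels and 57 with DESeq2. For the difference of the met-2 steps it was 1026 at 0.01 and 0 as labelled.

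Leaving out 1 preparation at a time gave 4235 to 5719 members, 502 to 667 domains and medians of 0.09 to 0.14 in met-2 nrde-3, 0.51 to 0.55 in lin-61 met-2, 1.77 to 2.5 in nrde-3, 1.246 to 1.43 in lin-61, with 3.13 to 3.38 in N2. Called members were 4650 to 4822 for met-2 nrde-3 against nrde-3, 1051 to 3517 for lin-61 met-2 against lin-61, 14 to 4831 for nrde-3 against N2, 3884 to 4804 for lin-61 against N2, 2 to 318 (in either direction) for lin-61 met-2 against met-2 nrde-3 and 1242 to 3306 for the difference of the met-2 steps.

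Of 1300 values for the named domains, 1181 moved by less than the spread between preparations, 116 by more and 3 called ones reversed. Most of the 1181 came from leaving out 1 preparation. That shifts a mean by less than this spread by construction, so these values could not count as moved. With SD-divided levels, 64 values moved and the remaining 1 reversed. With column totals, and likewise with all N2 as labelled, 25 moved, 1 reversed and 39 stayed within the spread. The reversed value of nrde-3 minus N2 at V 19955891 to 19966390 was 0.0197 with SD-divided levels and 0.0331 with all N2 as labelled. That of lin-61 minus N2 at I 11018454 to 11026953 was 0.0178 with column totals. The causes were not tested.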
